A study of Homo sapiens with 15 samples.

Results

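P4 is a small molecule designed to inhibit CtBP2, and it was given for 24 h to MDA-MB231 cells, a line derived from a triple-negative breast cancer. The 5 arrays labelled with the treatment P4 were taken for this comparison, out of 15 arrays in the series, and each set P4-treated cells (Cy5) against untreated cells of the same line (Cy3). The other arrays were 5 with HIPP, also collected after 24 h, and 5 with cells silenced for CtBP2 by a short hairpin (shCtBP2). They enter as values set beside those of P4 and, through 1 fit over 15 arrays, in the spread behind the P4 p-values. P4 is sodium 2-hydrazone-3-phenylpropanoate and HIPP is sodium 2-hydroxyimino-3-phenylpropanoate, so that both share the phenylpropanoate and differ in the group that replaces the keto oxygen. The sources used here give concentrations of P4 for other experiments but do not tie one to the arrays, and the replicates are labelled as biological replicates of 1 cell line. The dyes were not exchanged, so a dye effect of a gene cannot be told apart from the treatment. If the arrays shared a control extract, the spread between control cultures is not in the p-values.

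CtBP1 and CtBP2 are paralogous transcriptional corepressors that bind NAD(H) and bring histone-modifying enzymes to DNA-bound repressors. The integrated stress response, which the first gene group below belongs to, is the pathway in which kinases that sense amino acid lack, heme lack, viral RNA or misfolded protein slow translation, while the transcription factor ATF4 is made and switches on genes of amino acid supply and redox balance. Sterol synthesis genes are switched on by SREBP factors when cell cholesterol is low, NRF2 target genes by oxidants and electrophiles, and metallothionein genes by metals.

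The promoter stretches of 5 genes are printed here because they belong to called members of 3 gene lists described below, the metallothioneins, the interferon-stimulated genes and the YAP-TEAD targets. Each holds the 250 bases before the annotated start in RefSeq on GRCh38.p14, written 5′ to 3′ on the gene's strand. Capitals mark matches, on either strand, to TGCNCNC (metal response element) in MT2A, to the interferon-stimulated element in IFIT1 and IFIT3, and to CATTCC (TEAD element) in CCN2 and ANKRD1.
MT2A promoter, chr16:56608334-56608583, plus strand: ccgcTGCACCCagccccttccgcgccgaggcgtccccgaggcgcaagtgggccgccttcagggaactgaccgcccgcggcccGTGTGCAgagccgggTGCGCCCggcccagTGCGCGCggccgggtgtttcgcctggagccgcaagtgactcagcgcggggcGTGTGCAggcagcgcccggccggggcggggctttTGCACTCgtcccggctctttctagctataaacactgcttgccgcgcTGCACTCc
IFIT1 promoter, chr10:89392373-89392622, plus strand: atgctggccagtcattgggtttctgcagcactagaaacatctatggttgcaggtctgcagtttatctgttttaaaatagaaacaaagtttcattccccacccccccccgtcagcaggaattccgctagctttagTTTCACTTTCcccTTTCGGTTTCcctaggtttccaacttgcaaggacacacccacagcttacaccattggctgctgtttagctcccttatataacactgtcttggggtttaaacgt
IFIT3 promoter, chr10:89327747-89327996, plus strand: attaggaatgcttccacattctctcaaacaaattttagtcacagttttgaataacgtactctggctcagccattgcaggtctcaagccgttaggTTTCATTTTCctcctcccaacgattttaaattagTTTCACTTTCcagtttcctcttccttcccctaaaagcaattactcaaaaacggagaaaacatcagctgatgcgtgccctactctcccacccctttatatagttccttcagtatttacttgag
CCN2 promoter, chr6:131951373-131951622, minus strand: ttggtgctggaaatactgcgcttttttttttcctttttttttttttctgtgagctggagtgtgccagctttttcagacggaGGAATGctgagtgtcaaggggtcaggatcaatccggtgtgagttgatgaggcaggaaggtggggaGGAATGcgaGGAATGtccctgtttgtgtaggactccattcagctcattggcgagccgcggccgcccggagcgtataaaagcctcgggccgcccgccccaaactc
ANKRD1 promoter, chr10:90921088-90921337, minus strand: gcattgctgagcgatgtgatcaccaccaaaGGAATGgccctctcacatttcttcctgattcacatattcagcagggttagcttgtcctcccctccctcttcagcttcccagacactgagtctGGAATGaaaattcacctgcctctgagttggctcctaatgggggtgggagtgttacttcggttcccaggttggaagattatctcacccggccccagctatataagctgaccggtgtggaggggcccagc
MT2A held 7 such matches, IFIT1 2, IFIT3 2, CCN2 3 and ANKRD1 2. Over 300-base windows, which run from 250 bases before to 50 after the start, the metal response element was found in 55.2% of 27305 promoters, the interferon-stimulated element in 3.65% and the TEAD element in 14%. A match is a description of the letters and not a sign that a factor was bound.

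The 5 arrays did not resemble each other equally. A gene was called bright when each of its probes was well above background in both channels on all 5 P4 arrays, which held for 14143 of the 27574 genes tested. Over the bright genes, Pearson's r between arrays was 0.749 to 0.898 among replicates 1, 4 and 5 and 0.764 between replicates 2 and 3. Between these sets r was 0.195 to 0.616, the lowest value being that of replicates 1 and 3. These values are across genes, which are not independent replicates. Replicates 1 to 4 lay on 1 slide and replicate 5 on another slide that was scanned on another day, so the split does not follow the slide. Of 1037 bright genes called on slide 1 alone, 1037 had the same sign on replicate 5, and over all brightness levels it was 2009 of 2134 (94.1%), where 60.7% of all tested genes were positive on replicate 5. Arrays that shared a control extract would share its deviations, and this was not tested. Markers of the line and of other cell types were checked by their control signals. Of all gene spots, 66.4 to 77.2% had control signals well above background on the P4 arrays. The control signals of 7 of 7 mesenchymal markers, VIM and CD44 among them, were well above background on 5 of 5 arrays, whereas those of CDH1 (E-cadherin), PGR (progesterone receptor) and PTPRC (a leukocyte marker) were so on none. Control signals were well above background on 5 of 5 arrays for 5 of 8 luminal and hormone receptor markers (ERBB2 among them), 2 of 4 leukocyte, 1 of 3 endothelial and 1 of 3 stromal markers, and ESR1 (estrogen receptor) reached this on 4 arrays. Of all these markers, CAV1 was the 1 called with P4, and the part of other cells in the results was not tested. In such bulk RNA, fewer cells of a kind and less RNA per cell cannot be told apart.

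A gene was called when its mean log2 ratio of treated over untreated differed from 0 with a limma adjusted p under 0.05 and a fold change of at least 1.8. P4 gave 2334 called genes, or 8.46% of those tested, of which 1185 were higher (4.3%) and 1149 lower (4.17%). Among bright genes 1216 were called (8.6%), 607 higher (4.29%) and 609 lower (4.31%). Among the other genes 8.32% were called. These shares are the background for the counts of called members in the gene lists below. Of the 2334 genes, 2017 had the same sign on 5 of 5 arrays. The median log2 ratio of the genes tested was 0.11, against 0.01 with normexp background correction and loess normalization. Without replicates 2 and 3, 3076 genes were called, 1771 of them among the 2334. With normexp and loess 583 genes were called (2.11% of those tested), of which 570 were among the 2334. Many of the calls that normexp with loess ended are given beside the genes and groups below. The fit with slide as a block called 2495 genes, and 1104 of these were among the 2334, and some calls that it ended are given too. In that fit replicate 5 has a weight of 0.75 in the P4 value and replicates 1 to 4 have 0.25 together, since slide 1 holds P4 arrays alone, and the value is shifted by differences between slides in the HIPP and shCtBP2 arrays. A call lost in it therefore rests mostly on 1 P4 array.

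**Figure D1:**
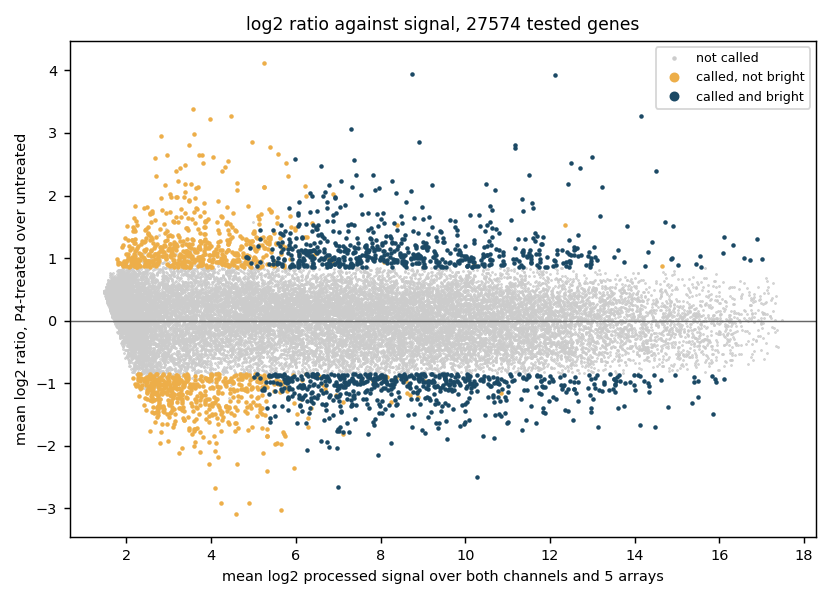
Mean log2 ratio of P4-treated over untreated cells (vertical axis) against the mean log2 processed signal of both channels (horizontal axis), 1 point per tested gene. Called genes lie at both ends of the ratio, and the 1216 called bright genes (blue) lie to the right of most of the other called genes (orange).

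The bright genes with the highest ratios encoded a secreted stress cytokine, stress regulators, and enzymes of cysteine and sterol synthesis. GDF15, a secreted member of the TGF-beta family, had log2 ratios of 3.47, 4.82, 3.70, 4.01 and 3.61 on replicates 1 to 5. Its mean of 3.92 ± 0.54 (SD, n = 5, adjusted p = 5.68e-08) is a 15.1-fold rise. NUPR1, a stress-induced chromatin protein, had 2.83, 2.85, 2.79, 2.83 and 2.96, which were within 0.17 of each other (mean 2.85 ± 0.07, SD, n = 5, adjusted p = 6.96e-10). CTH, the enzyme that makes cysteine from cystathionine, had 2.49, 3.14, 2.79, 2.79 and 2.83 (mean 2.81 ± 0.23, SD, n = 5, adjusted p = 7.65e-10). HMGCS1, which makes HMG-CoA for the sterol pathway, had 3.04, 2.51, 2.75, 2.64 and 2.87 (mean 2.76 ± 0.20, SD, n = 5, adjusted p = 1.21e-08), and its 2 probes gave 2.62 and 2.90. DDIT4, an inhibitor of the growth kinase mTORC1, had 2.36, 3.00, 2.52, 2.73 and 2.46 (mean 2.61 ± 0.26). Replicate 2 was the highest array for GDF15, CTH and DDIT4 and the lowest for HMGCS1.

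Among the next highest bright genes, SLFN5 (a Schlafen family protein) rose by 2.57 on the log2 scale and ANGPTL4, a secreted inhibitor of lipoprotein lipase, by 2.53. FBXW10 rose by 2.48 and HMOX1, heme oxygenase 1, by 2.45. CYP1B1, a cytochrome P450 that hydroxylates estrogens and polycyclic hydrocarbons, had 3.27, 2.08, 1.81, 2.37 and 2.46 (mean 2.40 ± 0.55, SD, n = 5, adjusted p = 1.52e-05). DUSP13A, listed on the array as DUSP13, rose by 2.33 and UNC5B, a netrin receptor, by 2.23.

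The largest falls among bright genes were smaller than the largest rises and varied more between arrays. CAVIN2, a coat protein of caveolae listed as SDPR, had −1.48, −3.23, −2.58, −2.62 and −2.61 (mean −2.50 ± 0.63, SD, n = 5, adjusted p = 1.64e-06), with replicate 1 the weakest. CAV1, the main protein of caveolae and one of the mesenchymal markers checked above, had a mean of −1.38 ± 0.18 and was called lower as well. MYLIP, a ubiquitin ligase, had −2.03, −1.94, −2.40, −2.21 and −2.18 (mean −2.15 ± 0.18, SD, n = 5, adjusted p = 5.54e-09). IL18, an inflammatory cytokine, had a mean of −1.90 ± 0.54. PLEKHA2, LPAR1 (a lysophosphatidic acid receptor), TGFBR3 (betaglycan), LPCAT3 (a phospholipid-remodelling enzyme) and SHCBP1 had means of −1.81 to −1.75. TFRC, the transferrin receptor, had −2.49, −1.16, −0.78, −2.0 and −1.94 (mean −1.68 ± 0.69, SD, n = 5, adjusted p = 0.000416). For TFRC, LPCAT3, TGFBR3 and SHCBP1, replicates 2 and 3 gave the weakest falls.

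**Figure D2:**
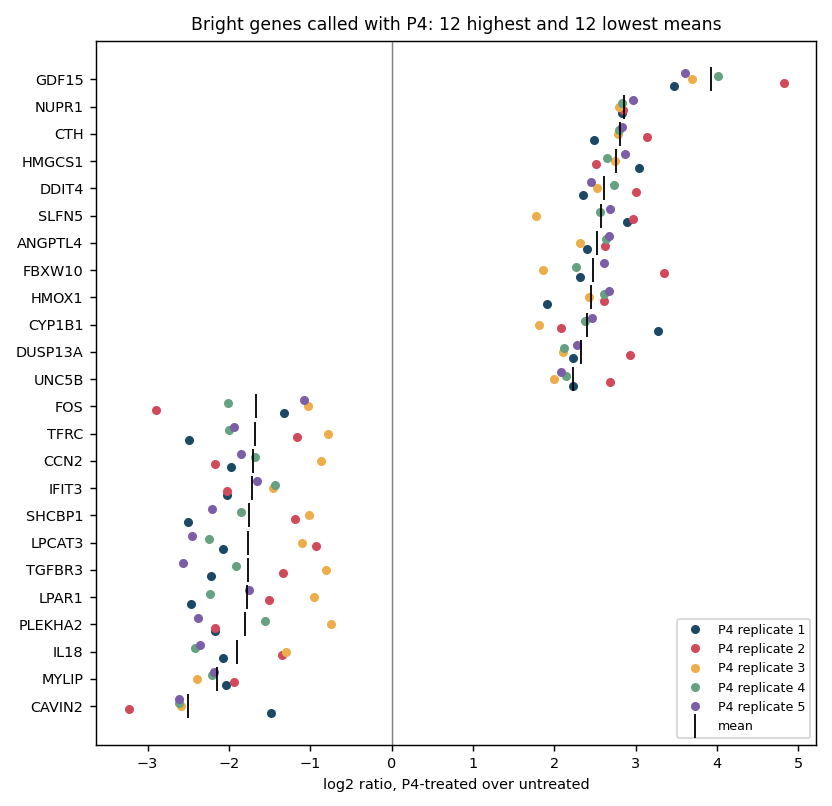
The log2 ratio of P4-treated over untreated cells on each of 5 arrays (points coloured by replicate) and their mean (black bar) for the 12 highest and 12 lowest called bright genes with a current symbol. The rises reach a mean of 3.92 (GDF15) and the falls −2.50 (CAVIN2), and the 5 points of NUPR1 nearly coincide while those of FOS spread from −2.90 to −1.03.

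Of 23 integrated stress response genes on the array, 16 were called higher and 0 lower, where 4.3% of all tested genes were called higher. The median over the members was 1.18, against 0.11 over all tested genes, and the array medians lay between 1.05 and 1.42. ATF4, the central transcription factor, had 1.5, 1.30, 1.22, 1.69 and 1.82 (mean 1.51 ± 0.25, SD, n = 5, adjusted p = 5.80e-07), and its 2 probes gave 1.06 and 1.95. TRIB3, a pseudokinase that restrains ATF4, had 1.33, 2.50, 2.04, 1.74 and 1.58 (mean 1.84 ± 0.45, SD, n = 5, adjusted p = 7.61e-06), and its 2 probes gave 1.23 and 2.44. JDP2, an AP-1 family repressor, had a mean of 1.95 ± 0.35. DDIT3 (CHOP), a factor of the late response, had 0.24, 1.90, 1.17, 0.32 and 0.77 (mean 0.88 ± 0.68, SD, n = 5, adjusted p = 0.0169). Its call was lost without replicate 2 (0.62) or 3 (0.81), with normexp and loess (0.78) and with slide as a block (0.07). Normexp with loess left 12 members called higher, and without replicates 2 and 3 there were 16 higher and 1 lower. The 4 kinases of the list, EIF2AK1 to EIF2AK4, had means of 0.16, 0.32, −0.39 and −0.38, and none was called. The 9-base C/EBP-ATF element TGATGNAAT was in 1 of the 20 promoter windows found for the list, that of FGF21, in 0 of the 14 of members called higher, and in 1.02% of all windows.

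The endoplasmic reticulum chaperones, which rise when misfolded protein gathers in that organelle, gave 0 calls among 28 members (median 0.13) with limma, while 6 passed the adjusted p higher and 0 lower. Leaving out replicate 1, 3 or 5 gave 1 call higher, the brightest probe of each gene 2 higher, and slide as a block 1 lower. HSPA5, the main chaperone of the organelle, had 0.09, 0.11, −0.42, −0.44 and −0.30 (mean −0.19 ± 0.27, SD, n = 5, adjusted p = 0.248). DNAJB9, its cochaperone, had a mean of 0.44 ± 0.55, with 1.35 on replicate 2 and 0.02 to 0.55 on the other arrays. The endoplasmic reticulum stress element, searched on both strands like the others, was in 28.0% of the windows found for these genes and in 0.0806% of all windows. Of 24 cytosolic heat shock proteins, HSPB8 was called higher (1.34 ± 0.50) and HSPA8, the constitutive HSC70, lower (−1.31 ± 1.06). HSPA8 had −2.53, −0.20, −0.21, −1.83 and −1.8, so replicates 2 and 3 lay near 0, and its call was lost without replicate 1, 4 or 5 (−1.01 to −1.19). HSPB8 lost its call with normexp and loess (0.33), with slide as a block (0.18) and without replicates 2 and 3 (1.05). HSPA1A, the heat-inducible HSP70, had a mean of 0.29 ± 0.51.

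Genes of amino acid supply rose in part. Of 25 amino acid transporters 8 were called higher and 1 lower (median 0.58). Over all tested genes 4.3% were called higher and the median was 0.11. Only 12 of the 25 transporters were bright, and normexp with loess left 3 called higher and 0 lower. SLC7A5, the light chain of the leucine transporter LAT1, had 1.45, 1.37, 1.22, 1.83 and 1.5 (mean 1.47 ± 0.23). SLC1A4, which carries serine and alanine, had a mean of 1.56 ± 0.31 and was not called with slide as a block (0.75). SLC7A11, the cystine importer, had a mean of 1.00 ± 0.27 and was called neither with normexp and loess (0.80) nor with slide as a block (0.39). SLC7A7 had a mean of 2.98 ± 0.83, but in untreated cells its signal reached that brightness on 0 of 5 arrays, and it was at least 1.31-fold higher when dim signals were raised to the lowest signal well above background. Of SLC6A9 and SLC3A1, the treated signals were well above background on 1 and 2 arrays, and neither kept its call with normexp and loess (0.13 and −0.32). By the same bound SLC6A9, whose control signal was well above background on no array, was at least 1.09-fold higher.

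Of 23 enzymes of serine, one-carbon and transsulfuration metabolism, 7 were called higher and 0 lower (4 higher with normexp and loess), while the median of the list was 0.11. The median ran from 0.03 to 0.26 on leaving out 1 array and was 0.39 with the brightest probe of each gene. The calls lay on a few steps. PHGDH and PSAT1, the first steps of serine synthesis, had means of 1.02 ± 0.16 and 1.58 ± 0.13. MTHFD2, a mitochondrial folate enzyme, had 1.60, 1.8, 1.45, 1.23 and 1.47 (mean 1.51 ± 0.21, SD, n = 5, adjusted p = 5.72e-07). ALDH1L2, the mitochondrial formyltetrahydrofolate dehydrogenase, had a mean of 2.31 ± 0.20 and was under the fold-change threshold with normexp and loess (0.81). GLDC, of the glycine cleavage system and well above background on 3 treated and 2 control arrays, had 0.23, 3.55, 1.68, 0.61 and 1.17, and its mean of 1.45 ± 1.29 was not called without replicate 2 (0.92). CTH is the member with the highest ratio. By contrast SHMT1 and MTHFD1, of the cytosolic one-carbon cycle, had means of −0.33 and −0.43, and the filter on low variability removed MTHFD1 from the test.

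Of 17 genes for glutamine, glutamate, asparagine and proline metabolism, 4 were called higher, and the same number of 4 was called with normexp and loess. ASNS, asparagine synthetase, had 1.66, 1.72, 1.64, 1.65 and 1.78 (mean 1.69 ± 0.06, SD, n = 5, adjusted p = 5.68e-08). This mean joins 2 probes that did not give the same value. The probe at chromosome 7, 97126112 to 97126171 of build hg17 gave 3.33, and the probe of a separate transcript record at 97182787 to 97182846 gave 0.05, both bright. GPT2, a mitochondrial alanine transaminase, had a mean of 1.5 ± 0.27, GFPT1, the first enzyme of hexosamine synthesis, 1.29 ± 0.39, and PYCR1, of proline synthesis, 1.09 ± 0.27. PYCR1 was not called with slide as a block (0.66). Of 20 cytosolic aminoacyl-tRNA synthetases, which load tRNAs for translation, WARS1 was called higher (1.36 ± 0.17) and KARS1 lower (−0.88 ± 0.34). KARS1 lost its call with normexp and loess (−0.83) and without replicate 1 or 5 (−0.79 and −0.83). None of the 17 mitochondrial synthetases was called.

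**Figure D3:**
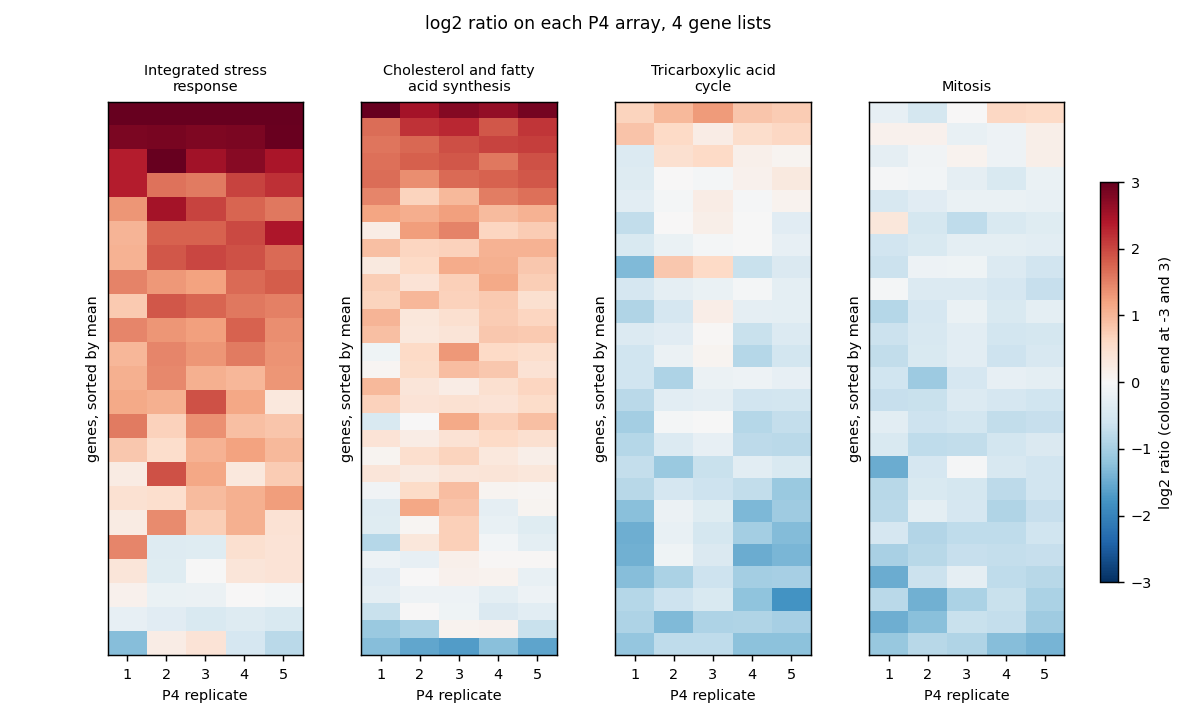
The log2 ratio of P4-treated over untreated cells on each array (columns, replicates 1 to 5) for the genes (rows without names, sorted by mean) of 4 lists, red for higher and blue for lower. Most integrated stress response genes and the upper rows of the cholesterol and fatty acid list are red on the 5 arrays, while several tricarboxylic acid cycle genes are darker blue on replicates 1, 4 and 5 than on 2 and 3.

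Of 32 members of the cholesterol and fatty acid list, 9 were called higher and 1 lower (median 0.55). Normexp with loess left 8 higher and 1 lower. SQLE, squalene epoxidase, had 1.65, 1.79, 1.85, 1.59 and 1.91 (mean 1.76 ± 0.14). MSMO1, listed as SC4MOL, had a mean of 2.02 ± 0.24, and INSIG1, which holds SREBP in the endoplasmic reticulum, 1.88 ± 0.20. FASN, the fatty acid synthase, and SCD, a desaturase, were not called (−0.50 and 0.35), and SREBF1, the factor that drives fatty acid genes, was the member called lower (−1.47).

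NRF2 target genes gave 12 calls higher and 0 lower among 24 members (median 0.80), and 7 higher with normexp and loess. With slide as a block 6 were higher and 1 lower (median 0.46), and without replicates 2 and 3 9 were higher. The array medians were 0.24 on replicate 1 and 0.77 to 0.89 on the other arrays. HMOX1, which breaks down heme, had 1.91, 2.61, 2.43, 2.62 and 2.67 (mean 2.45 ± 0.31, SD, n = 5, adjusted p = 5.32e-08). AKR1B10, an aldo-keto reductase, had a mean of 2.16 ± 0.47, and its 2 probes gave 2.13 and 2.19. ABCC3 and ABCC2, export pumps for conjugates, had 1.60 ± 0.30 and 1.10 ± 0.23, and ABCC2 lost its call with normexp and loess (0.59). FTL and FTH1, the ferritin chains that store iron, had means of 0.91 and 0.85 and were called. AKR1C1 had a mean of 1.53 ± 0.58 over 4 probes from 0.19 to 2.32. It shares sequence with other AKR1C genes, so its probes may share their signal, and slide as a block ended its call (1.09). NQO1, the quinone reductase often used as the measure of this response, had 0.00, −0.17, 0.38, 0.15 and 0.26 (mean 0.12 ± 0.22) and was removed by the filter on low variability. The antioxidant response element TGACNNNGC was in 21.1% of the windows found for the list and in 13.6% of all windows.

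Metallothioneins bind zinc and copper. In a list of 12 genes, metallothioneins and the zinc exporter SLC30A1, 7 were called higher and 0 lower (median 0.97), and the same number was called with normexp and loess. MT2A had 1.49, 0.72, 1.09, 1.48 and 1.76 (mean 1.31 ± 0.41, SD, n = 5, adjusted p = 3.86e-06), with replicate 2 the lowest. MT1B had 1.24, 0.64, 1.17, 1.41 and 1.61, MT1X 1.17, 0.61, 0.88, 1.13 and 1.18, and MT1G 1.25, 0.68, 0.90, 1.06 and 1.31, again with replicate 2 the lowest. MT1F had a mean of 1.10 ± 0.18. The metallothionein genes are near-identical, so that a probe may take up signal of its neighbours and these are not separate measurements. SLC30A1 had a mean of 0.12 and was not called.

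Genes of the tricarboxylic acid cycle fell in part. Of 25 members 6 were called lower and 1, IDH1, higher, where 4.17% of all tested genes were called lower, and the median was −0.42. FH, fumarase, had −1.15, −0.75, −0.77, −1.23 and −1.22 (mean −1.03 ± 0.24, SD, n = 5, adjusted p = 2.57e-05). ACO1, the cytosolic aconitase that also acts as an iron sensor, had a mean of −1.01 ± 0.17, and SUCLG1 of −0.98 ± 0.24. SDHB, of succinate dehydrogenase, had −1.44, −0.13, −0.44, −1.48 and −1.37 (mean −0.97 ± 0.64). The call was lost for FH and DLST with normexp and loess (−1.07 and −0.61), for ACO1 with slide as a block (−0.79) and for SDHB without replicate 4 (−0.85). Without replicate 5 DLST lost its call too (−0.78), and 4 members were called lower. The 2 probes of DLST gave −1.32 and −0.65. IDH1, the cytosolic NADP-dependent isocitrate dehydrogenase, had a mean of 0.90, and IDH2, its mitochondrial counterpart, −0.90. CS, citrate synthase, had a mean of 0.18 ± 0.40 and was not called. The medians of the list were −0.81, −0.66 and −0.45 on replicates 1, 4 and 5 and −0.23 and −0.18 on replicates 2 and 3, and without the latter pair 9 members were called lower and 0 higher. Slide as a block also gave 9 lower and 0 higher.

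Of 68 respiratory chain subunits 6 were called lower and 0 higher, with a median of −0.07. The calls were 10.7% of the members tested, where 4.17% of all tested genes were called lower and their median was 0.11. Of the 56 tested, 18 passed the adjusted p lower and 5 higher, whatever the fold change. The calls were 3 subunits of the ATP synthase head, cytochrome c and 2 further subunits. ATP5F1A had −1.98, −0.64, −0.50, −1.45 and −1.53 (mean −1.22 ± 0.63, SD, n = 5, adjusted p = 0.000867). ATP5F1B and ATP5F1C had means of −1.14 ± 0.68 and −1.10 ± 0.43. CYCS (−0.97 ± 0.36) lost its call with normexp and loess (−0.45), and ATP5F1B with slide as a block (−1.62). Without replicates 2 and 3 the number called lower was 11. As in the tricarboxylic acid cycle, replicates 2 and 3 were the arrays with the smallest falls for ATP5F1A and ATP5F1B. The part of the split between arrays in these falls was not tested.

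Glycolysis had 1 call higher and 2 lower among 25 members (median −0.07). PCK2, the mitochondrial PEP carboxykinase, rose (1.40 ± 0.14), while ENO1, enolase, had −1.42, −0.83, −0.60, −0.80 and −1.17 (mean −0.96 ± 0.33), under the threshold without replicate 1 (−0.85). FBP1 (−1.47 ± 0.96), a gluconeogenic phosphatase, was bright enough in treated cells on 1 array and was called neither with normexp and loess (−0.25) nor with slide as a block (−1.04). LDHA, lactate dehydrogenase, had a mean of −0.80 ± 0.24 (adjusted p = 6.99e-05), below the 1.8-fold limit, and passed when replicate 3 was left out (−0.87). HK2, hexokinase, had a mean of 0.73 ± 0.68, and was called without replicate 2 or 3 (0.92 and 0.87). In pentose phosphate and purine synthesis ADSL was the 1 call among 20 members (−1.26 ± 0.74), and PPAT (0.04 ± 0.31) was not called.

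**Figure D4:**
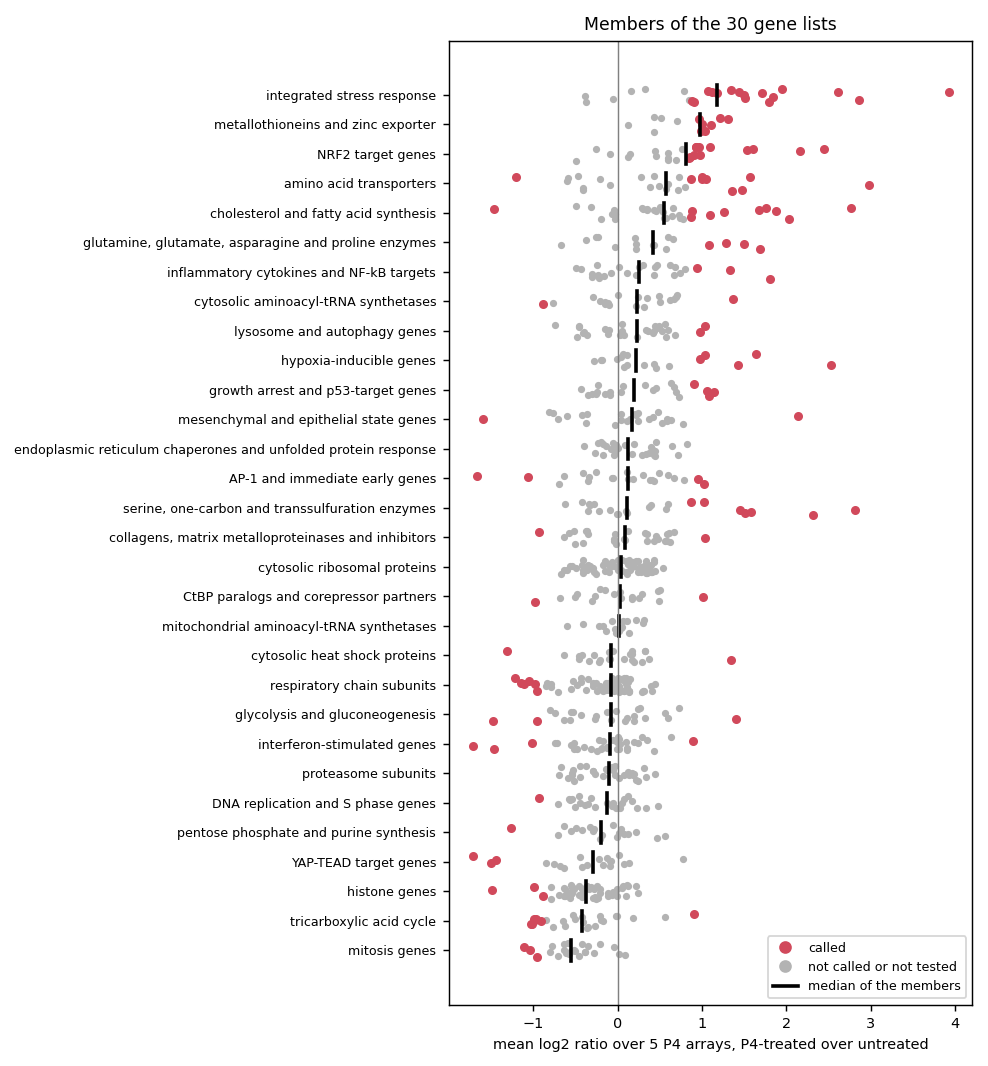
The mean log2 ratio over 5 P4 arrays (horizontal axis) of each member of 30 gene lists (rows, sorted by median), with called members in red, the others in grey and the median as a black bar. The median is highest for the integrated stress response (1.18) and lowest for mitosis genes (−0.55).

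Mitosis genes had a median of −0.55, with array medians from −0.64 to −0.41. Of 25 members 3 were called lower and 0 higher, where 4.17% of all tested genes were called lower. Whatever the fold change, 19 passed the adjusted p lower and 0 higher, so most of the shift lay under the fold-change threshold. TOP2A, topoisomerase II alpha, had −1.13, −0.83, −0.89, −1.29 and −1.39 (mean −1.10 ± 0.24, SD, n = 5, adjusted p = 4.96e-05). MKI67, the proliferation marker Ki-67, had −1.03 ± 0.34 and BUB1B, a checkpoint kinase, −0.96 ± 0.29. With slide as a block MKI67 and BUB1B were not called (−0.85 and −0.68), and 2 members of the list were lower and 1 higher. BUB1B was not called without replicate 2 (−0.84). CCNB1 and CDK1, which drive entry into mitosis, had means of −0.63 ± 0.17 and −0.64 ± 0.24. DNA replication genes had a median of −0.13, and FEN1, the flap endonuclease, was the 1 call among 25 (−0.93 ± 0.24), lost without replicate 5 (−0.85), while 5 members were called lower without replicates 2 and 3. PCNA and MCM2 had means of −0.13 ± 0.04 and −0.27 ± 0.12 and were removed by the filter on low variability. Of 51 histone genes 3 were called lower (median −0.37), led by H2BC12 (−1.48 ± 0.32). The calls were 6.82% of the members tested, where 4.17% of all tested genes were called lower. H3C7 (−0.99) and H1-2 (−0.88) lost their calls without replicate 1 (−0.76) and replicate 2 (−0.80), and such probes may cross-hybridise with related histone genes.

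Of 22 growth arrest and p53-target genes 4 were called higher, and 0 with normexp and loess. CDKN1A, the cell cycle inhibitor p21, had 0.40, 1.43, 1.49, 1.02 and 0.94 (mean 1.05 ± 0.44, SD, n = 5, adjusted p = 7.16e-05), against 0.68 with those steps. GADD45G (1.14 ± 0.43) and TP53INP1 (1.08 ± 0.29) had 0.45 and 0.59 with those steps. With slide as a block CDKN1A, GADD45G and TP53INP1 were not called either (0.93, 0.74 and 0.99), while 3 members of the list were called higher. The fourth gene, CDKN2B, was well above background in 1 treated signal and 0 control signals, and its value changed sign with normexp and loess (−0.06). GADD45A had a mean of 0.41 ± 0.22 and was not tested.

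Hypoxia-inducible genes had 5 calls higher and 0 lower among 18 members (median 0.21), and 5 with normexp and loess. VEGFA, the angiogenic growth factor, had 1.62, 1.82, 1.44, 1.84 and 1.48 (mean 1.64 ± 0.19, SD, n = 5, adjusted p = 1.08e-07) over 4 probes. LOX, a collagen crosslinker, had 1.43 ± 0.46 and lost its call with slide as a block (1.17). BHLHE40 (1.04 ± 0.16) and MXI1 (0.98 ± 0.45) are transcriptional repressors. CA9, the carbonic anhydrase often taken as the marker of hypoxia, was not well above background in either channel of the 5 arrays.

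The 3 IFIT genes called lower encode antiviral proteins, and the promoters of IFIT1 and IFIT3 are printed above. Of 36 interferon-stimulated genes 3 were called lower and 1 higher (median −0.09), and 8 passed the adjusted p lower and 3 higher, whatever the fold change. The calls were 13.8% of the members tested, where 8.46% of all tested genes were called. IFIT3 had −2.03, −2.02, −1.46, −1.43 and −1.65 (mean −1.72 ± 0.29, SD, n = 5, adjusted p = 1.84e-05). IFIT1 had −1.58, −1.51, −1.37, −1.51 and −1.33 (mean −1.46 ± 0.11, SD, n = 5, adjusted p = 7.33e-05). IFIT2 (−1.02 ± 0.40) lost its call with normexp and loess (−0.83) and with slide as a block (−1.05). ISG15 had a mean of −0.13 ± 0.10. BST2, whose signal was well above background on 1 array in treated and 2 in untreated cells, was called higher (0.89 ± 0.91) with replicate 2 far above the others (2.51, against 0.38 to 0.62 on the others), and was 0.49 and not called without it. Normexp with loess (0.12) and a block of slides (0.65) ended its call, and so did a block of replicate numbers, which left its value as it was. The interferon-stimulated element was in 64.3% of the 28 windows found for the list and in 3.65% of all windows.

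A group of targets of YAP and TEAD, the factors that answer to cell shape and stiffness, gave 3 calls lower among 20 members (median −0.29) and 0 higher, and these 3 were also called with normexp and loess. With slide as a block 3 members were lower and 1 higher (median −0.07). CCN1, a matricellular protein listed as CYR61, had −0.94, −1.71, −1.59, −1.52 and −1.74 (mean −1.5 ± 0.33, SD, n = 5, adjusted p = 4.82e-06). CCN2, listed as CTGF, had −1.97, −2.17, −0.86, −1.68 and −1.85 (mean −1.71 ± 0.50). ANKRD1, a muscle ankyrin repeat protein, had −0.67, −2.18, −1.32, −1.59 and −1.41 (mean −1.44 ± 0.54). The other members had means from −0.85 (TGFB2) to 0.77 (CCDC80). The TEAD element was in 43.8% of the 16 windows found for the list and in 14% of all windows.

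Of the AP-1 and immediate early genes FOS and DUSP1 were called lower and JUND and EGR2 higher, among 23. EGR2 (1.02, with 3 of 5 control signals well above background) was not called without replicate 2 (0.73), its highest array, or with normexp and loess (0.25). FOS had −1.32, −2.90, −1.03, −2.01 and −1.07 (mean −1.67 ± 0.79, SD, n = 5, adjusted p = 0.0493), close to the threshold. It was not called on leaving out any 1 of the 5 replicates (−1.36 to −1.83). DUSP1 (−1.06 ± 0.50) lost its call without replicate 1, 2, 4 or 5. JUN had −0.05 ± 0.49. In the inflammatory list PTGS2, cyclooxygenase 2, had 1.64, 1.84, 2.02, 1.77 and 1.75 (mean 1.8 ± 0.14, SD, n = 5, adjusted p = 2.89e-06), one of 3 calls higher among 25. The number was 6 without replicate 1 and 2 without replicate 3. CXCL3 (1.33 ± 0.25) and IL1B (0.94 ± 0.59, with 4 treated and 3 control signals well above background) lost their calls with normexp and loess (0.53 and 0.17), and IL6 (0.02 ± 0.46) and CXCL8 (−0.24 ± 0.59) were not called. The 2 probes of CXCL3 gave 0.63 and 2.03.

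The mesenchymal and epithelial list had 1 call in each direction among 26, or 8.0% of the members tested, where 8.46% of all tested genes were called. KRT81, a hard keratin, had 2.11, 1.74, 2.07, 2.30 and 2.44 (mean 2.13 ± 0.27, SD, n = 5, adjusted p = 1.08e-07), and CDH11, a mesenchymal cadherin, had −1.82, −1.40, −1.33, −1.51 and −1.89 (mean −1.59 ± 0.25). VIM, vimentin, had −0.03 ± 0.21. Without replicates 2 and 3, 5 members were called lower. Collagens and matrix metalloproteinases gave COL8A1 lower (−0.93 ± 0.68) and MMP3 higher (1.03 ± 0.50), the latter well above background on 2 treated and 1 control arrays. Neither was called with normexp and loess (−0.73 and 0.16) or when slides were blocked (−0.65 and 0.45). Leaving out replicate 2 or replicate 3 left 0 members of that list called in either direction. Autophagy genes GABARAPL1 (1.04 ± 0.51) and MAP1LC3B (0.97 ± 0.19), which coat autophagosomes, were called higher among 29. GABARAPL1 was not called with normexp and loess (0.84), with slide as a block (0.25) or without replicate 2 (0.82), and MAP1LC3B was not called with slide as a block (0.67). With slide as a block 0 members of the lysosome and autophagy list were higher and 2 were lower. None of 32 proteasome subunits and none of 75 cytosolic ribosomal proteins was called, with medians of −0.10 and 0.04. This did not hold in each alternative. Background-subtracted, median-centred signals gave 9 ribosomal proteins higher (median 0.48). Leaving out replicates 2 and 3 gave 5 ribosomal proteins and 1 proteasome subunit lower, and slide as a block 4 and 3 lower. Of the CtBP group, CTBP2, the named target of P4, had 0.61, −0.16, −0.22, 0.32 and 0.29 (mean 0.17 ± 0.35), and CTBP1 −0.05 ± 0.45. CDYL, a corepressor partner, was called lower (−0.98 ± 0.50) and KLF8, a repressor that binds CtBP, higher (1.01 ± 0.28), with 3 treated and 2 control signals well above background and 0.21 with normexp and loess.

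**Figure D5:**
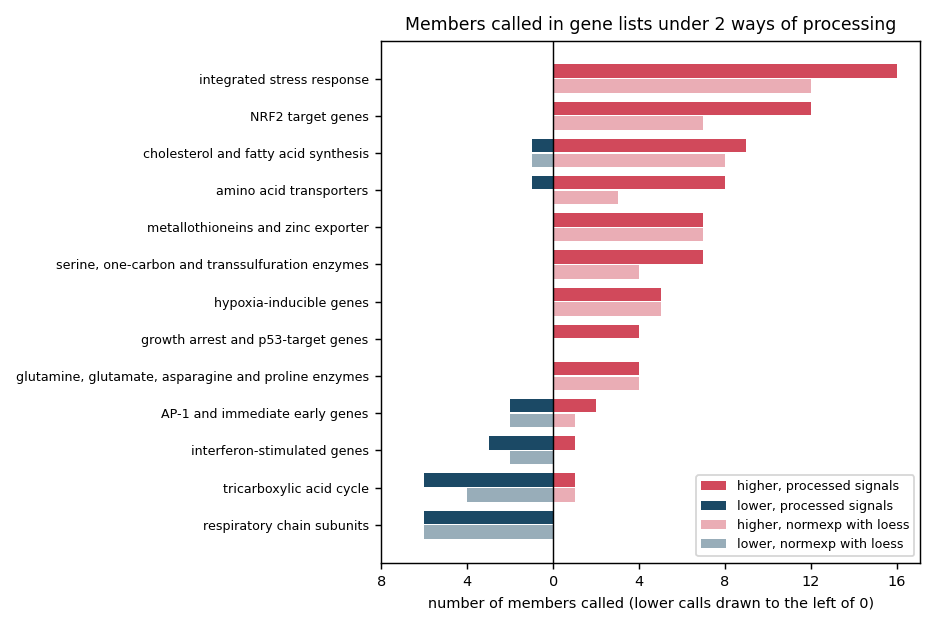
The number of members called higher (red, right of 0) and lower (blue, left of 0) in the gene lists with at least 4 calls, from the processed signals (dark) and after normexp correction with loess (pale). The integrated stress response has 16 and 12 calls higher, and growth arrest and p53-target genes have 4 and 0.

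The same genes had these values with HIPP and in shCtBP2 cells. The study gives different concentrations of the compounds for other experiments and does not state those of the arrays, so no test was made between them. GDF15 had 3.92 with P4, 4.66 with HIPP and 0.59 in shCtBP2 cells. NUPR1 had 2.85, 2.90 and 0.69 in the same order. The list medians of the integrated stress response were 1.18, 1.32 and 0.28, those of metallothioneins 0.97, 1.01 and −0.07, and those of sterol and fatty acid genes 0.55, 0.58 and 0.07. HMOX1 had 2.45, 4.11 and 0.43. PSAT1 had 1.58 with P4, 0.67 with HIPP and 0.13 in shCtBP2 cells. MTHFD2 had 1.51, 0.65 and −0.56, and UNC5B 2.23, 0.96 and −0.64. The list medians of the tricarboxylic acid cycle were −0.42 with P4, −0.79 with HIPP and 0.02 in shCtBP2 cells, and those of mitosis −0.55, −0.70 and −0.27. CTBP2 had 0.17, 0.57 and −0.41. The 3 comparisons may share control RNA. The labels give untreated cells as the control of all 15 arrays, whereas the study describes its shCtBP2 comparison as one with cells that carry a scrambled hairpin, so the control behind the shCtBP2 values is uncertain.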

How the data were processed

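Per the labels, RNA of treated or shCtBP2 cells (Cy5) and of untreated cells (Cy3) was hybridised together on Agilent whole human genome arrays, 5 per treatment. Per the file headers, the authors extracted the spots with Agilent Feature Extraction 9.5.3.1, which corrected background and dye, on probes placed on build hg17, and the deposited processed signal intensity of both channels was used. The deposited value table holds log10 ratios with a median of 0 on each array. They differed by at most 0.005 from the log10 ratio that Feature Extraction wrote for each spot. The ratio of the processed signals is a separate value, and its log2 median over the genes tested was −0.114 to 0.168 on the P4 arrays. Decimal commas in the files were read as points. Each array has 43376 gene spots. On the P4 arrays the share of spots well above background was 67.6 to 72.9% for Cy5 and 66.4 to 77.2% for Cy3, 22.6 to 27.7% were so in neither, 78 to 265 spots were flagged and left out, and 0 were saturated. The signal was a substituted one in 15.5 to 20.1% of the spots for Cy5 and in 11.0 to 18.6% for Cy3. The number of arrays limits the precision.

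Log2 ratios were averaged over spots and probes of a gene name. Genes measured on at least 3 of the 5 P4 arrays were kept, and the 11% with the lowest interquartile range over 10 channel signals were removed, as in the study's methods, which also removes genes that did not change. The mean was tested against 0 with limma 3.58.1 (R 4.3.3), 1 coefficient per treatment over 15 arrays, two-sided, with Benjamini-Hochberg adjustment. The spread of a gene was thus estimated over all treatments. A fit of the 5 P4 arrays alone called 1925 genes, against 2334. Values are mean ± SD over 5 arrays. Gene names were updated through RefSeq accessions (16339 genes), symbols (689) and synonyms (550), and 13404 of 30982 names had no current symbol. Members and lists were chosen with earlier results of these data known. List counts are over members on the array, a member removed by the filter counting as not called, and a list stands for the description of its members without a test of its own. Named genes were the 12 highest and 12 lowest called bright genes with 1 sign on 5 arrays and a current symbol, up to 5 called members and the first 2 genes of each of 30 lists, and CTBP1 and CTBP2. Results for 5 of the genes that this rule or the text would name are not reported here. Further members are named where the text singles them out after their values were seen. The bound used normexp with an offset of 50, loess within and quantile normalization of mean intensities between arrays. The fit was tested on simulated data. Alternatives not detailed in the closing section were the value table, the brightest probe of a gene, no interquartile range filter, dim probes left out, slide as a random block, slide 1 alone and the 5 P4 arrays alone. Leaving out replicates 2 and 3 together was chosen after seeing the data.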

Additional observations from a re-analysis of the deposited data

Results flagged for a closer look

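In 138 sets of 5 array values, those of the called genes named above and of the list medians, 1 array lay far from the other 4 in 8 sets, where chance gives about 1 in 20. Replicate 1 was the array set apart in 4 and replicate 2 in 4. Replicate 2 was the highest for BST2 (2.51, next 0.625) and DUSP13A (2.93, next 2.27), and the lowest for ACO1 (−1.32, next −0.985) and H1-2 (−1.21, next −0.855). Replicate 1 gave the smallest fall for CYCS (−0.36, next −1.02) and CCN1 (−0.937, next −1.52). It also gave the lowest median of the NRF2 target genes (0.239, next 0.766) and of the lysosome and autophagy genes (0.0377, next 0.187).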

How the results depend on the processing

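Across the processing alternatives, 0 of the 2334 called genes were called in the opposite direction. Normexp with loess called 583 genes (293 higher, 290 lower, 567 bright), and the methods' t-test with the same thresholds 895 (417 higher, 478 lower, 653 bright). The study itself reported 293 genes in all for P4 with its t-test, fewer than the 895 or the 2334 here, and the reason was not tested. A 1.5-fold threshold gave 4829 (2477 higher, 2352 lower, 2843 bright). Slide as a block raised the bright calls to 1893, and leaving out replicates 2 and 3 to 2054. Leaving out 1 P4 replicate gave 2105 to 2803 calls, 1096 to 1409 higher, 1009 to 1394 lower and 1037 to 1541 bright. CDKN2B changed sign with normexp and loess (−0.062). Of 108 named called genes, 81 kept their call with normexp and loess, 78 with slide as a block, 82 with the methods' t-test and 90 without replicates 2 and 3. The causes were not tested. With background-subtracted, median-centred signals 1012 genes were higher and 1345 lower, and with slide as a block 1127 and 1368, against 1185 and 1149. The alternatives not named here, on sources, probes, filters, slides and arrays in the fit, gave 1728 to 2511 calls. Same-numbered arrays of different treatments had correlated deviations of −0.023 to 0.471, over 0.1 in 13 of 15 pairs (5 of 5 for shCtBP2 with P4, 4 of 5 for HIPP with P4). An array correlated best with its own number in 13 of 30 combinations, each a choice among 5 arrays. The numbers were not taken to pair the arrays, and whether same-numbered arrays share material was not tested. The replicate number as a block gave 2430 calls and, among the named genes, ended that of BST2. Among the calls, 246 genes were well above background in the control channel alone on some arrays and in the treated channel on none, 110 the other way round, and 171 in neither. For 340 such genes a bound above 1-fold could be given, with a median of 1.09-fold and a highest value of 1.69-fold.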
